A study of Homo sapiens with 21 samples.

Results

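The Wnt ligands, their receptors and the proteins that carry the signal to the nucleus were examined during differentiation of human iPSCs into cardiomyocytes. Genes were chosen by symbol. All Wnt (*WNT*), Frizzled (*FZD*) and R-spondin (*RSPO1* to *RSPO4*) genes were taken, with 19 named co-receptors, secretion factors, receptor ligases, Dishevelled proteins, *APC*, *CTNNB1* and TCF factors. The rule names 52 protein-coding genes of RefSeq. Of these, 43 have at least 1 row in the deposited tables, through 83 transcripts and 160 rows, out of 11851 genes and 36579 rows in all. The other 9 have 0 rows here: *WNT1*, *WNT2*, *WNT7B*, *WNT8B*, *WNT16*, *FZD3*, *FZD9*, *RSPO1* and *DVL2*.

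Libraries were made from the poly-A RNA of wild-type PGP1, a human iPSC line, with 3 for undifferentiated iPSCs and 3 for each stage derived from them. These stages were mesoderm (M), its cardiac form (CMes), the progenitor (CP) and the cardiomyocyte (CM). CMs of 2 *UBE2B*-/- lines, which lack an enzyme that helps place ubiquitin on histone H2B, were also sequenced, with 3 libraries per line. Both lines were edited from PGP1 in separate experiments and grown from picked colonies, and wells of beating CMs were enriched with lactate. Replicates were plates whose differentiation began at different times. The protocol itself acts on this pathway. Differentiation began with CHIR99021, which inhibits GSK3 and so stabilizes beta-catenin, and IWP4, which blocks the enzyme that makes Wnt proteins fit for secretion, was added later.

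Wnt proteins receive a lipid from PORCN and are carried to the cell surface by WLS. They bind Frizzled receptors together with LRP5 or LRP6, which lets beta-catenin (CTNNB1) build up and act with TCF factors, or they signal through ROR1, ROR2 and RYK without beta-catenin. R-spondins bind LGR receptors and keep the ligases ZNRF3 and RNF43 from removing Frizzled receptors. Early Wnt signaling induces mesoderm, and its later inhibition favors the cardiac fate.

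Each table pools the libraries of the groups it compares into 1 mean per transcript. The levels below are therefore the authors' means over 2 adjacent stages, or over CMs of wild type and both mutant lines. They are given in estimated counts on a geometric scale, which was assumed from the column names and not checked. Estimated counts are not corrected for transcript length, so an order between different genes is given only per kb. A gene that is near 0 at 1 stage and abundant at the next has a low pooled level. The spread between replicates is given as the residual SD on the natural-log scale, from the authors' variances within groups. A transcript is listed only if it passed the authors' limit for that comparison, so which members are listed is their selection. That limit weighs a group difference against the spread between replicates, so a step above the residual SD would be no separate support. Counts of listed members are given only as a description, with no test. The share of all protein-coding genes with a row was not computed, so these counts do not show that members are listed more often than other genes. Of the member genes with a row, 44.2% were listed in at least 3 of the 6 tables, beside 32.6% of all listed genes. No value per library was available to these analyses, no difference between stages or genotypes was tested, and neighboring tables share the libraries of 1 stage. The tables were scaled separately. Between neighboring stage pairs, the level of the transcripts listed in both moved by a median of 0.08, 0.19 and -0.22 on the log2 scale, later minus earlier table. Their quartiles were -0.13 and 0.28, -0.46 and 1.13, and -0.92 and 0.38. Changes of pooled level smaller than these quartiles are common among all listed transcripts. By definition, as many transcripts lie outside the quartiles as within them, so a step outside does not set a member apart. These transcripts had also all passed the authors' limit in both comparisons.

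The labelled stages were checked against marker genes. *POU5F1*, a pluripotency factor, had pooled levels of 7169 estimated counts over M and CMes, 1931 over CMes and CP and 17.8 over CP and CM. The pluripotency genes *SOX2* and *DPPA4* had 36.9 and 44.9 over CP and CM, while *LIN28A* had 1175 there with a residual SD of 1.08. The *DPPA4* value is of ENST00000478791.1, a different transcript from ENST00000335658.6, which had 1647 over CMes and CP. Of 6 cardiomyocyte markers, all 6 were listed for CMes and CP, at 14.6 to 2486 estimated counts, and all 6 for CP and CM, at 2002 to 20016. The lowest in both was *ACTN2*, through different transcripts, so its values are not a change of 1 transcript. Of 5 primitive streak and mesoderm markers, 3 were listed for iPSC and M at 22.7 to 638. For M and CMes 3 were listed at 3.65 to 111, and for CMes and CP 5 at 2.69 to 523. *EOMES* had 3.65 and 523 through different transcripts. Of 6 cardiac mesoderm and progenitor markers, 4 were listed for M and CMes at 3.37 to 283. For CMes and CP 5 were listed at 44.5 to 4655, and for CP and CM 5 at 26.9 to 2548. Pooled values cannot assign these markers to 1 stage. Genes used as markers of other cells were also listed. Over CMes and CP, 5 of 5 endoderm and epithelial markers were listed at 44.3 to 4170 estimated counts, and 4 of 4 mesenchymal markers at 434 to 7343. *EPCAM*, the highest of the former, already had 4087 over iPSC and M and 4101 over M and CMes. *COL1A1* and *COL1A2* had 2059 and 1739 over iPSC and M. The levels of these genes over CMes and CP thus do not by themselves show other cells. In bulk samples, fewer cells of a type and less RNA per cell cannot be told apart. The part of other cells in the levels below was not tested.

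Among the Wnt ligands, 14 of 19 genes were listed in at least 1 table. *WNT5A*, which encodes a ligand known mostly for signaling without beta-catenin, had a pooled level of 294 estimated counts over M and CMes, or 50.3 per kb. *WNT5B* had 91.9 per kb in the same table. The technical SD, from the authors' resampling of reads, was above the residual SD for both genes there. It was 0.53 against 0.22 for *WNT5A* and 0.76 against 0.59 for *WNT5B*, so these levels are uncertain. The 9 ligands listed for M and CMes had a median of 44.7 estimated counts, the 8 listed for CMes and CP 72.0 and the 6 listed for CP and CM 28.0. These medians are over different sets of genes and do not follow the ligands from stage to stage. For iPSC and M only *WNT5B* (104) and *WNT10B* (7.64) were listed.

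*WNT9B* was listed in 5 of the 6 tables, as were *CTNNB1* and *LRP5*. These are 3 of the 43 members, or 6.98%, beside 4.49% of all listed genes. The *WNT9B* transcript ENST00000290015.7 lies on chromosome 17 of GRCh38 from 46851583 to 46880560, with 4 exons. Its pooled level was 106 estimated counts over M and CMes, 179 over CMes and CP, and 7.89 over CP and CM. Over CMs of wild type and mutants it was 9.001. The step from M and CMes to CMes and CP lay within the quartiles of all transcripts listed in both tables, and the lower level over CP and CM lay outside them. The residual SD was 0.41 and 0.37 in the tables with the higher levels and 1.00 and 1.14 in those with the lower ones.

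*WNT4* and *WNT11*, ligands that can signal without beta-catenin, shared a higher level over CMes and CP than over M and CMes. *WNT4* had pooled levels of 16.9 estimated counts over M and CMes, 97.8 over CMes and CP and 96.5 over CP and CM. *WNT11* had 18.6 over M and CMes and 126 over CMes and CP. Each step from M and CMes to CMes and CP lay above the upper quartile of all transcripts listed in both tables. The residual SDs were 0.29 and 0.27 for *WNT4* and 0.36 and 0.18 for *WNT11* on the natural-log scale. *WNT8A*, a ligand of the early embryo, had the opposite order, with 44.7 estimated counts over M and CMes and 8.12 over CMes and CP. The transcript behind these values, ENST00000361560.6, is annotated as subject to nonsense-mediated decay, and the protein-coding ENST00000398754.1 had 11.1 and 4.65.

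*WNT3*, which is needed to form mesoderm in the mouse, was represented by ENST00000616347.2, with 151 estimated counts over M and CMes and 124 over CMes and CP. This transcript was not matched to GENCODE 44, and over CMes and CP its technical SD of 0.55 was above its residual SD of 0.22. The protein-coding *WNT3* transcript ENST00000225512.6 had 18.2 over CMes and CP, with a residual SD of 1.76. *WNT5B* had 6 listed transcripts, the most of any ligand. Its main one, ENST00000310594.7, had pooled levels of 104 over iPSC and M, 201 over M and CMes and 244 over CP and CM. Over CP and CM its technical SD of 0.89 was above its residual SD of 0.30. The remaining ligands were near or below 50 estimated counts in every stage table where they were listed. *WNT10B* had 19.96 over M and CMes, *WNT6* 46.2 and *WNT3A* 9.48 over CMes and CP, and *WNT9A* 42.6, *WNT7A* 13.4 and *WNT10A* 6.33 over CP and CM. *WNT2B* had 5.79 over M and CMes and 5.81 over CMes and CP.

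Both secretion factors were listed. *WLS*, the carrier of Wnt proteins, (ENST00000262348.9, chromosome 1, 68125360 to 68232523) had a pooled level of 183 estimated counts over iPSC and M and 2504 over M and CMes. A second transcript, ENST00000354777.6, had 10.7 and 306 in the same tables. Both transcripts thus had a higher level in the pair that includes CMes. The technical SD, from the authors' resampling of reads, was 0.43 for ENST00000262348.9 over iPSC and M, above its residual SD of 0.25. For CP and CM only a short transcript of *WLS* was listed, at 25.7. *PORCN* was listed once, at 6.88 over CP and CM.

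Of the 10 Frizzled receptors, which bind Wnt proteins at the cell surface, 8 were listed. *FZD4* has a value for all 4 stage pairs. Its transcript ENST00000531380.2 has 2 exons and lies on chromosome 11 from 86945679 to 86955395. Its pooled level was 387 estimated counts over iPSC and M, 885 over M and CMes, 4987 over CMes and CP and 2284 over CP and CM. The residual SD was between 0.075 and 0.097 in these tables. Each step lay outside the quartiles of all transcripts listed in the 2 tables it joins. *FZD7* (ENST00000286201.2, a single exon on chromosome 2, 202033855 to 202038441) had 7352 over CMes and CP and 2907 over CP and CM.

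*FZD5* was listed only for the earlier pairs, with 2761 estimated counts over iPSC and M and 2577 over M and CMes. Its residual SD was 0.19 and 0.33 there, and these levels differed by less than that spread. *FZD2* had 432 over M and CMes and 1085 over CMes and CP. *FZD1* had 89.5 over iPSC and M and 1049 over CP and CM, and *FZD8* had 288 over M and CMes and 1429 over CMs of wild type and mutants. *FZD10* had 19.7 and 14.7 over the earlier pairs. *FZD6* was listed for CP and CM at 266, through a transcript annotated as subject to nonsense-mediated decay. The protein-coding *FZD6* transcript ENST00000522566.5 had 212 there, with a residual SD of 0.28.

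**Figure D1:**
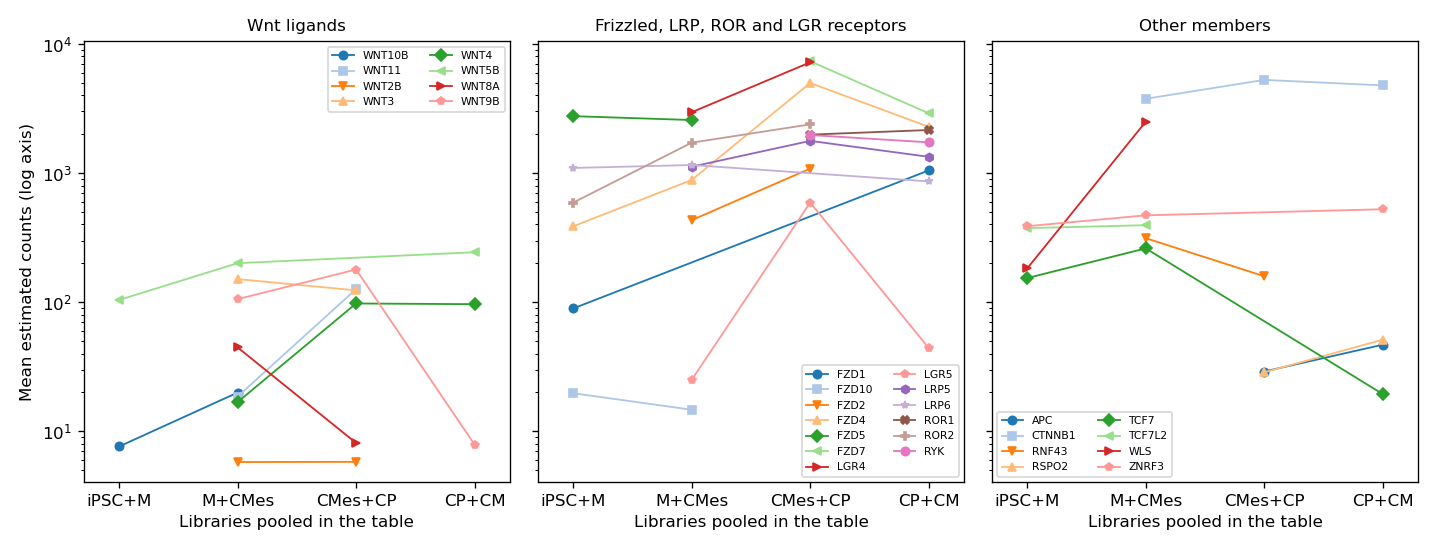
Pooled level (mean estimated counts, log axis) of member transcripts listed for at least 2 stage pairs, with 1 transcript per gene, by the stages pooled in each table. Points are the authors' means over both stages and lines join the same transcript, also across tables that do not list it. *FZD4* goes from 387 to 4987 estimated counts by CMes and CP, and *LGR5* from 25.1 to 592 and then 44.2.

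All co-receptors were listed, and their pooled levels lay between 591 and 2384 estimated counts in every table. *LRP5*, listed in 5 tables, had pooled levels of 1121 over M and CMes, 1776 over CMes and CP and 1337 over CP and CM. Over CMs of wild type and mutants its level was 1863. *ROR2*, a receptor for WNT5A, had 591 over iPSC and M, 1720 over M and CMes and 2384 over CMes and CP. Its residual SD was at most 0.13. *ROR1* had 1986 over CMes and CP, 2156 over CP and CM and 1457 over CMs of wild type and mutants. *RYK* had 1972 and 1731 over CMes and CP and over CP and CM.

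*LRP6* carried a limit of the quantification. Its main transcript ENST00000261349.9 had 1096 estimated counts over iPSC and M, 1155 over M and CMes and 863 over CP and CM. A second identifier, ENST00000628182.3, had exactly the same mean and variances in all of these tables. Another pair of *LRP6* identifiers was equal in 2 tables and a further pair in 1, and 1 identifier of each pair was not matched to GENCODE 44. The sums of the main pair were 2192, 2310 and 1726 estimated counts. Whether reads were divided between these copies was not tested.

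*LGR4* and *LGR5*, the receptors of R-spondins, both had their highest pooled level over CMes and CP. *LGR4* had 2961 estimated counts over M and CMes and 7211 over CMes and CP. *LGR5* (ENST00000266674.10, chromosome 12, 71439798 to 71586310, 18 exons) had 25.1 over M and CMes, 592 over CMes and CP and 44.2 over CP and CM. The residual SD of *LGR5* was 0.17 in the middle table and 0.71 and 1.44 in the others. Both steps lay outside the quartiles of all transcripts listed in the tables they join. A second transcript of *LGR5*, ENST00000540815.2, had 10.2 over M and CMes and 5.97 over CP and CM.

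Of the R-spondins, *RSPO3* had 85.1 estimated counts over CMes and CP. *RSPO2* was represented by ENST00000517939.5, with 28.7 over CMes and CP and 51.3 over CP and CM, and *RSPO4* had 22.4 over CP and CM. Another transcript of *RSPO2*, ENST00000276659.10, had 11.6 over CMes and CP, 21.9 over CP and CM and 37.3 over CMs of wild type and mutants. Its residual SD was 0.48 over CMes and CP and 1.73 and 1.53 in the other tables, where it was among the largest of the members.

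The ligases that remove Frizzled receptors were listed at several stages. *ZNRF3* (ENST00000544604.6) had 388 estimated counts over iPSC and M, 471 over M and CMes and 525 over CP and CM. Its second transcript, ENST00000406323.3, had 252, 233 and 7.16 in the same tables, so the transcripts of *ZNRF3* did not share an order. *RNF43* had 58.4 over iPSC and M, 62.0 over M and CMes and 41.8 over CMes and CP through ENST00000407977.6. Another transcript of the gene, ENST00000584437.5, had 313 over M and CMes and 159 over CMes and CP.

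Beta-catenin and the TCF factors followed. *CTNNB1* (ENST00000349496.11, chromosome 3, 41199505 to 41240443, 15 exons) had pooled levels of 3764 estimated counts over M and CMes, 5271 over CMes and CP and 4778 over CP and CM. The residual SD was 0.23, 0.11 and 0.11. In the mutant tables a different transcript, ENST00000396183.7, was listed at 1804. *APC*, a scaffold of the complex that degrades beta-catenin, was listed through ENST00000257430.9 at 29.1 and 46.9 over CMes and CP and over CP and CM. Its residual SD of 1.90 and 1.83 was the largest of all members in both tables.

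*TCF7* had 154 estimated counts over iPSC and M, 261 over M and CMes and 19.4 over CP and CM. The first value had a technical SD of 0.65, above its residual SD of 0.29, and the last had a residual SD of 1.25. *TCF7L2* had 375 and 395 over the earlier pairs, through a transcript that was not matched to GENCODE 44. *TCF7L1*, which mainly represses targets when beta-catenin is absent, had 1269 over CP and CM. Its level was 1170 over CMs of wild type and mutants, with a residual SD of 0.062. The Dishevelled genes were listed through different transcripts. *DVL3* had 2803 over CMes and CP through ENST00000313143.9 and 9.67 over M and CMes through ENST00000431765.6.

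The order of the members was read per kb of transcript. Over CMes and CP, 20 members had a transcript of known length. *FZD7*, *CTNNB1* and *LGR4* were the highest, with 1603, 1440 and 1374 estimated counts per kb. They were followed by *FZD4* with 675, *ROR2* with 573 and *DVL3* with 532 per kb. Of the ligands with a known length, *WNT11* was the highest with 66.5 per kb, followed by *WNT9B* with 36.0 and *WNT6* with 26.9. *WNT2B* was the lowest member with 0.52 per kb. The ligands and R-spondins with a known length in this table lay below every Frizzled, LRP, ROR and LGR gene with one. *WNT3*, *ROR1* and *RYK* were listed without a known length and have no value per kb.

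**Figure D2:**
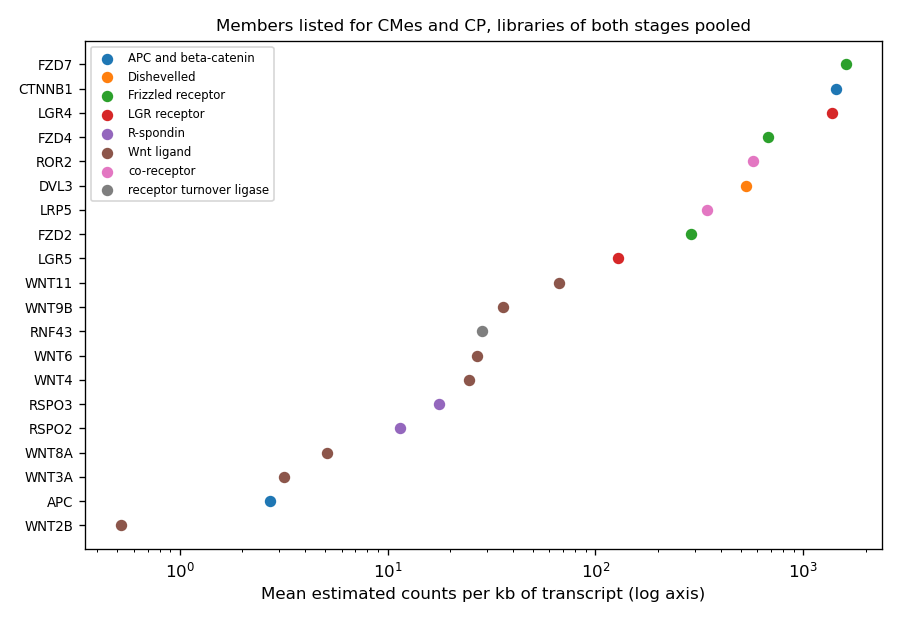
Pooled level of 20 members listed for CMes and CP, in mean estimated counts per kb of transcript (log axis), with 1 point per gene colored by role. The ligands run from 0.52 (*WNT2B*) to 66.5 (*WNT11*), and the Frizzled receptors from 287 (*FZD2*) to 1603 (*FZD7*).

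CMs of wild type and of both *UBE2B*-/- lines were fitted together. For all 1992 transcripts listed in both mutant tables the mean was the same, so these levels are pooled over 9 libraries of 3 genotypes and cannot be assigned to a genotype. *UBE2B* itself was listed for line 1 through ENST00000499038.2, at 79.7 estimated counts over the 9 libraries, a pooled value that cannot check the knockout. Mesenchymal markers were abundant in these libraries, with *COL3A1* at 50516 estimated counts and a residual SD of 0.67, and their part in the levels was not tested. Line 1 lists 9 of the 43 listed member genes, beside 2436 of all 11851 listed genes. Line 2 lists 10 of the 43, beside 2416 of the 11851. The members were thus listed at about the share of all listed genes. Their levels lay between 9.001 and 1863 estimated counts in both tables. *WNT2B* had 114 estimated counts with a residual SD of 1.72, the largest of the members in these tables. *DVL1*, at 935, and *CTNNB1*, at 1804, had residual SDs of 0.14 and 0.18. *DVL3* was listed at 316 through ENST00000478247.1, a transcript with a retained intron. *RSPO4*, listed for line 2, had 21.8.

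The members can be set beside all listed genes, without a test and without length correction. Their median level was 183, 291, 179 and 96.5 estimated counts in the 4 stage tables, beside 442, 379, 504 and 354 over all listed genes. With a minimum of 10 estimated counts for both, the members had 279, 304, 838 and 266 and all genes 498, 449, 559.9 and 439, so the order turned for CMes and CP. The median residual SD was 0.29, 0.28, 0.17 and 0.30 for the members and 0.14, 0.16, 0.13 and 0.19 over all listed genes. These SDs carry no minimum and were not matched for level, and the part of the lower member levels in them was not tested. In the mutant tables the median level was 1170 and 626 for the members and 551 and 539 over all genes, and the median residual SD was 0.22 and 0.33 for the members and 0.23 and 0.25 over all genes. In 32 of the 160 rows the technical variance was above the residual variance, so that resampling the reads moved the estimate more than the replicates differed. In the stage tables this was 28.0%, 19.1%, 21.9% and 24.3% of the member rows and 21.0%, 22.0%, 22.1% and 26.2% of all rows. The clearest case was *WNT2B* over M and CMes, with a technical SD of 1.104 and a residual SD of 0.087 at 5.79 estimated counts.

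**Figure D3:**
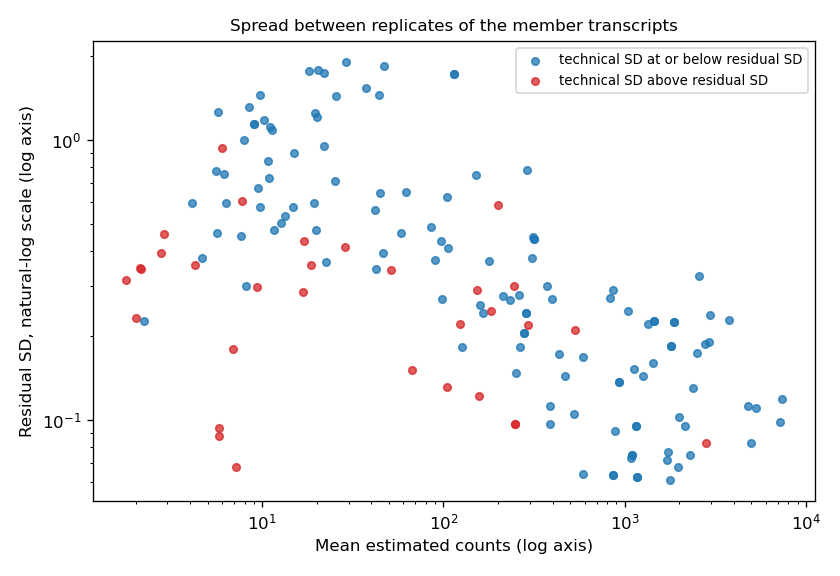
Residual SD within groups (natural-log scale, log axis) against mean estimated counts (log axis) for the 160 member rows, 1 point per transcript and table, colored by whether the technical SD exceeds the residual SD. *WNT2B* at 5.79 estimated counts has a residual SD of 0.087, and *APC* at 29.1 has 1.90.

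Of 47 other genes of the pathway, 40 were listed in at least 1 table. They numbered 17, 22, 22 and 25 in the stage tables and 17 and 20 in the mutant tables. Their median levels of 1114, 839.6, 518 and 715 estimated counts in the stage tables are not corrected for length. They include intracellular kinases, co-repressors and feedback inhibitors, and were not examined further.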

How the data were processed

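RNA was measured by poly-A RNA-seq in 21 libraries of the human iPSC line PGP1 and its derivatives. The authors trimmed the reads, quantified transcripts on hg38 with Kallisto and compared groups with Sleuth, and the 6 deposited tables list only transcripts that passed the authors' q-value limit. Per the file headers, each mean is a natural log value, ln(estimated counts + 0.5) averaged over the libraries compared, and the authors' variance scores are on the squared natural-log scale. The tables also hold the authors' p-value, q-value, effect, standard error and total variance for each transcript, which were not used, and 0 columns of per-sample values, so depth is unknown and no difference between groups was tested.

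Levels were computed as the exponential of the deposited mean minus 0.5, and the residual variance as the sum of the technical and remaining variance, with Python 3.11.15 and pandas 2.3.3. Simulated data built with the same formulas returned the set level and spread, which checks the arithmetic only and not the scale of the deposited columns. Transcripts were joined to GENCODE 44 on GRCh38 by unversioned identifier, which matched between 93.9% and 95.1% of the rows.

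Libraries were grouped by their titles. The members, lists and alternatives were chosen with earlier results of these data known. The named genes are those listed in at least 3 tables, the 5 transcripts with the highest mean, the 3 with the largest residual variance and the 3 with the largest technical share in each table, and every listed Wnt and R-spondin gene. A gene is represented by its listed transcript with the highest mean. Alternatives changed the transcripts taken, a minimum of 10 estimated counts, the length scaling and the variance used.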

Additional observations from a re-analysis of the deposited data

How the results depend on the processing

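For the median level and median residual SD of the members, 48 alternative values were computed. A level was counted as moved when it shifted by more than the members' median residual SD, and an SD when it changed by over 1.5 times. The first limit is a spread of single transcripts, so the 32 values not counted as moved do not show that a median over few genes is stable. With every listed transcript in place of 1 per gene, the median level was 104 for iPSC and M, 151 for M and CMes and 111 for CMes and CP, and the median residual SD for CMes and CP was 0.26. With a minimum of 10 estimated counts, the median level was 279 for iPSC and M, 838 for CMes and CP, 266 for CP and CM and 935 for line 2, as fewer genes enter. For CMes and CP this put the members above all listed genes with the same minimum, which turns the order. Per kb of transcript, which changes the unit, it was 50.1, 69.8, 51.3 and 24.3 for the stage pairs and 336 and 139 for lines 1 and 2. With the shrunken variance, the median residual SD was 0.43 for M and CMes and 0.45 for CP and CM. No paired analysis was possible because no test was made and the columns carry no replicate numbers. For the same reason no replicate could be left out. Library depth is unknown, so what it limits cannot be given.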
